A study of Mus musculus with 4 samples.

Results

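Langerhans-like dendritic cells were picked out of immune cells sorted from mouse hindpaws by their RNA. A cell barcode was a member if it held at least 3 UMIs (unique molecular identifiers, each counting 1 captured RNA molecule) of Cd207, at least 5 of H2-Aa, none of Xcr1, fewer than 5 of C1qa, C1qb and C1qc together, and none of Cd3e. In all, 54 members were found among 27800 barcodes with enough genes and little mitochondrial RNA. The cells were thus chosen by their counts of these genes, whose levels in them are given as a description.

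Langerhans cells are dendritic cells that live among the keratinocytes of the epidermis, where they reach between neighbouring cells, take up antigen and carry it to lymph nodes. They form early in life from precursors shared with tissue macrophages and depend on the receptor Csf1r and on TGF-beta signalling. Cd207 encodes langerin, the lectin of their Birbeck granules. In the mouse langerin is also made by type 1 conventional dendritic cells of the dermis, which carry the chemokine receptor Xcr1, and the limit on Xcr1 was meant to separate the 2 kinds. H2-Aa, a chain of MHC class II, marks antigen-presenting cells, C1q genes mark macrophages and Cd3e marks T cells. Il1b encodes the precursor of interleukin-1 beta, which is made after a danger signal and cut into its active form by the inflammasome.

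The genes behind the rule and its markers are all protein-coding. In the mouse genome build GRCm38 (mm10) Cd207 lies at chr6:83671215-83677857 on the minus strand and Xcr1 at chr9:123852315-123862029 on the minus strand. Epcam, an adhesion molecule of epithelia and Langerhans cells, lies at chr17:87635979-87651129 on the plus strand. Tbc1d4, which encodes a GTPase-activating protein of vesicle traffic, lies at chr14:101442360-101609191, and Il1b at chr2:129364570-129371139, both on the minus strand.

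The 4 libraries, 12-week-WT and 12-week-DB, then 21-week-WT and 21-week-DB, were made from male mice. DB mice were Lepr db/db on the C57BLKS/J background, which lack a working leptin receptor throughout the body and become obese and diabetic, and WT mice were Lepr WT/WT littermates. The labels call the ages young and aged, and the weeks come from the study's methods. Each library held CD45+ cells that were pooled from 2 to 3 mice after collagenase digestion of whole hindpaws, so there was no replicate of any condition and no test between conditions was possible. Differences between libraries are therefore given with intervals that cover counting error only, and animal, library and condition cannot be told apart. Age cannot be told apart from the Cell Ranger version written in the files, 5.0.0 at 12 weeks and 6.0.0 at 21 weeks.

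The deposited tables held 47851794 UMIs (WT) and 57025899 (DB) at 12 weeks and 69626521 (WT) and 54989592 (DB) at 21 weeks. Kept barcodes had a median of 7390, 7193.5, 8000.5 and 5355 UMIs in the same order, which further runs of 4 values keep. The members were deeper, with medians of 11329, 9259, 14570 and 15454 UMIs. Summed over members, the 4 libraries gave 126146, 280792, 120997 and 150073 UMIs. Levels below are counts per 1000000 UMIs (CPM) of these sums, with exact Poisson 95% intervals. No member barcode was also kept in another library, although the libraries shared from 5 to 146 kept barcode sequences.

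The 21-week-DB library stood apart in 3 ways. Gm42418, a transcript that overlaps ribosomal RNA, took 2.20% of the UMIs of its kept barcodes against 6.17% and 4.17% in the 12-week libraries (WT and DB) and 8.02% in 21-week-WT. It held 8 Xcr1+ barcodes under the same limits, against 98, 55 and 152. Of its 11 members, 6 were among the barcodes with the highest Scrublet doublet scores, against 0 of 10, 1 of 25 and 3 of 8.

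Members were found in every library and were rare. They numbered 10 of 5271 kept barcodes in 12-week-WT, a share of 0.190% (exact Clopper-Pearson 95% interval 0.0910 to 0.349). In 12-week-DB they numbered 25 of 6552, or 0.382% (0.247 to 0.563). In 21-week-WT they numbered 8 of 7270, or 0.110% (0.0475 to 0.217). In 21-week-DB they numbered 11 of 8707, or 0.126% (0.0631 to 0.226). The share was 2.01 times as large in DB as in WT at 12 weeks, with an interval of 0.933 to 4.69, and 1.15 times at 21 weeks, with an interval of 0.421 to 3.29. Both intervals include equal shares. From 12 to 21 weeks the share was 0.331 times as large in DB (0.147 to 0.698), an interval that excludes equal shares, and 0.580 times in WT (0.199 to 1.63). For Xcr1+ barcodes under the same limits the ratio of DB to WT was 0.451 (0.318 to 0.634) at 12 weeks and 0.0439 (0.0186 to 0.0888) at 21 weeks. A share of sorted cells rests on all other cells in the sort as well as on this cell type.

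The limits of the rule mattered for how many cells were counted. Of 185 kept barcodes with at least 3 Cd207 UMIs, 54 were members, 44 held Xcr1, 70 were set aside by the C1q limit, 16 by Cd3e and 1 by H2-Aa. The C1q limit set aside 5 barcodes (WT) and 8 (DB) at 12 weeks and 5 (WT) and 52 (DB) at 21 weeks. Those were 33.3% (11.8 to 61.6), 24.2% (11.1 to 42.3), 38.5% (13.9 to 68.4) and 82.5% (70.9 to 90.9) of the barcodes that met all the other limits. With no limit on C1q the ratio of DB to WT became 1.77 (0.935 to 3.51) at 12 weeks and 4.05 (2.20 to 8.02) at 21 weeks, and the interval at 21 weeks then excluded equal shares. The ratio of 21 to 12 weeks in DB became 1.44 (0.928 to 2.26), on the other side of equal shares.

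**Figure D1:**
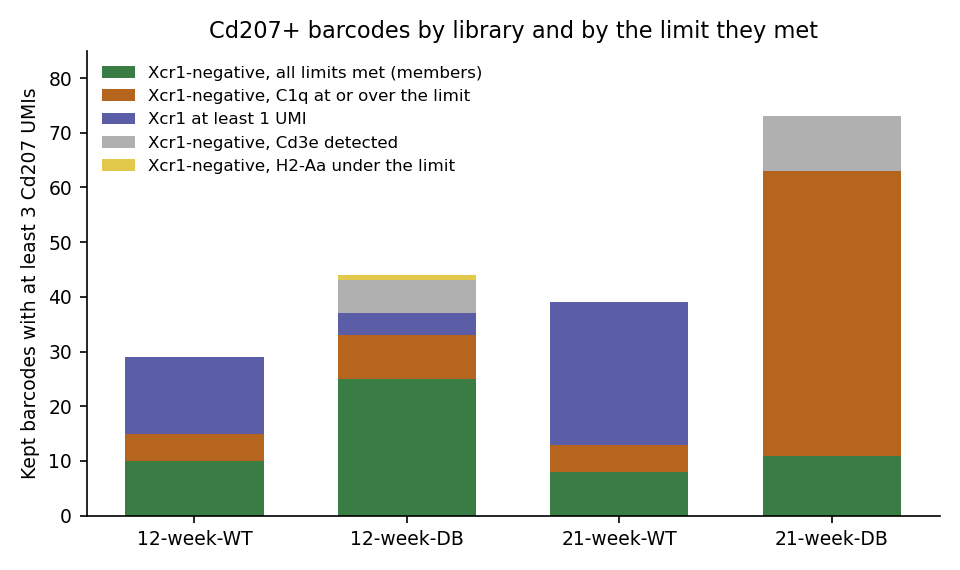
Kept barcodes with at least 3 Cd207 UMIs in each of the 4 libraries, as stacked bars (y axis: number of barcodes) split by the limit that kept them or set them aside. The part set aside by the C1q limit is 52 barcodes in 21-week-DB and 5 to 8 in the other libraries.

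The cells set aside by the C1q limit looked like the members in the Langerhans list and only partly like macrophages in the C1q genes. Of the 70, 69 had a UMI of Epcam, and in 69 the Langerhans list (Cd207, Epcam, Tbc1d4, Il1b, Mfge8, Ltc4s, Plek2, Cdh1 and H2-M2) held more UMIs than the type 1 or the type 2 dendritic cell list, with Cd207, Il1b and Xcr1 left out of the sums here and below. In 21-week-DB the Langerhans list was highest in 52 of 52 and Epcam was detected in 52, against 7 and 7 of its 11 members. For that library, comparisons of members below rest on those 11. The median C1q count of the cells set aside was 7 UMIs (WT) and 9.5 (DB) at 12 weeks and 19 (WT) and 11 (DB) at 21 weeks. Barcodes with at least 20 C1q UMIs and no Cd207 or Cd3e, used here as macrophages, had medians of 74, 65, 80 and 69. Among T cells, which should lack C1q, at least 5 C1q UMIs were found in 1.75%, 1.15%, 1.93% and 1.87% of barcodes. In 21-week-DB the 52 barcodes held Pf4, a macrophage chemokine gene, at 120 CPM, where macrophages of that library held 3083, and Lyve1 at 10.5 CPM, where macrophages held 1174. Whether doublets, free RNA or expression in the cells gave these C1q UMIs was not tested.

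The label was checked against the marker lists in each member. The Langerhans list held the most UMIs in 8 of 10 members of 12-week-WT, 24 of 25 of 12-week-DB, 5 of 8 of 21-week-WT and 7 of 11 of 21-week-DB, which is 44 of 54. In the others the type 2 dendritic cell list was highest in 8 and the type 1 list in 2. Epcam was detected in 8, 21, 7 and 7 members, 43 in all. Clec9a, a receptor of type 1 dendritic cells for dead cell debris, was detected in 1. By these sums the label fits most members, and 10 of 54 carried more of another dendritic cell list. The sums weigh abundant genes most. Mfge8 alone gave 861 of 1214, 1212 of 2495, 565 of 923 and 412 of 674 UMIs of the Langerhans list. Tbc1d4, also in that sum, was detected in 70.4%, 63.6%, 75.0% and 75.0% of Xcr1+ barcodes.

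Markers of several other hindpaw cells were at or near 0 in the members. The 8 keratinocyte genes summed to 3 UMIs (WT) and 15 (DB) at 12 weeks and 0 (WT) and 3 (DB) at 21 weeks. The T cell genes summed to 2, 15, 8 and 1 UMIs and the neutrophil genes to 2, 7, 0 and 5. The stromal genes summed to 3, 1, 0 and 1, and the plasmacytoid dendritic cell genes to 0, 1, 1 and 0. More UMIs came from B cell genes (21, 17, 5 and 4, led by Ighm), mast cell genes (12, 14, 3 and 65, led by Mcpt2 with 21 UMIs in 21-week-DB), monocyte genes (15, 59, 11 and 19) and macrophage genes (41, 113, 18 and 42, led by Apoe with 60 UMIs in 12-week-DB). Their part in the results below was not tested. No gene of the keratinocyte, T cell, B cell, mast cell, neutrophil, plasmacytoid, stromal, interferon or proliferation lists reached the level needed to enter any comparison between libraries below.

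**Figure D2:**
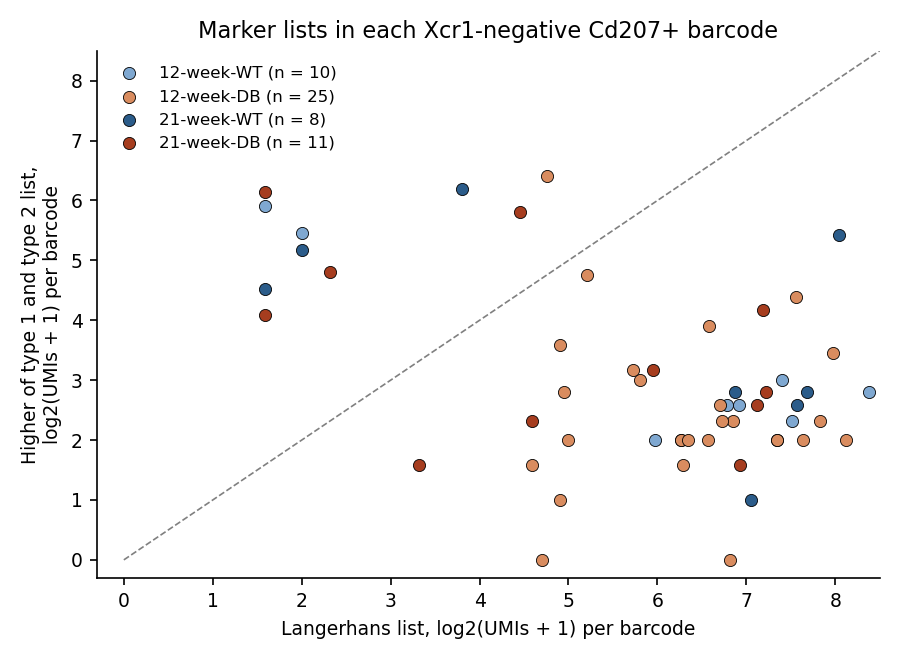
Each point is 1 of the 54 members, coloured by library, with its UMIs of the Langerhans list on the x axis and of the higher of the type 1 and type 2 dendritic cell lists on the y axis, both as log2(UMIs + 1). The dashed line marks equal counts, and 44 members lie on the Langerhans side of it.

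The members differed among themselves in how much Cd207 they held. At 12 weeks the median was 18.5 UMIs a cell in WT (range 4 to 56) and 38 in DB (3 to 181). At 21 weeks it was 22.5 in WT (3 to 64) and 13 in DB (3 to 95). Just inside the limit, 0, 1, 1 and 1 members held exactly 3 UMIs, and just outside it 1, 2, 5 and 2 barcodes held 2 UMIs and met every other limit. The barcodes just outside held Il1b at 1570, 1317, 4489 and 11585 CPM. At the C1q limit, 6 members held the highest allowed count of 4.

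Among Langerhans genes that the rule did not use, Mfge8 was abundant in all 4 libraries. Mfge8 encodes a secreted bridge between dying cells and the cells that take them up, and its level was 6825 CPM (WT) and 4316 (DB) at 12 weeks and 4670 (WT) and 2745 (DB) at 21 weeks. Epcam stood at 317, 342, 446 and 293 CPM, which made it one of the steadiest members of the list. Tbc1d4 stood at 1649, 2927, 1934 and 973 CPM and was lowest in 21-week-DB. Cdh1, the E-cadherin that anchors these cells to keratinocytes, stood at 333, 217, 190 and 86.6 CPM.

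Against the Xcr1+ barcodes of the same library, the members held more of most Langerhans genes and less of several type 1 dendritic cell genes. There were 313 Xcr1+ barcodes under the same limits, with a median of 5, 3, 3 and 1 Xcr1 UMIs a cell. The 8 of 21-week-DB held 12 Xcr1 UMIs in all, and Xcr1 was also found in 0.92% of T cells and 0.70% of macrophages there. That group thus rests on about 1 UMI a cell. Of 1628 genes high enough to be ranked, 116 (7.13%) were at least 2-fold higher in members in all 4 libraries and 61 (3.75%) at least 2-fold lower. In the Langerhans list 6 of 8 ranked genes were higher (Epcam, Mfge8, Ltc4s, Plek2, Cdh1 and H2-M2), with a median log2 ratio of 4.51 against 0.04 over all ranked genes. In the type 1 list 4 of 6 were lower (Naaa, Wdfy4, Itgae and Batf3), with a median of -2.55. Because Xcr1 and Cd207 chose the groups, no test was made and these counts are a description.

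Mfge8 showed how far the groups lay apart. In Xcr1+ barcodes it stood at 95.7, 21.8, 15.8 and 39.4 CPM, below the members of every library, and its log2 ratio was 7.03 ± 1.06 (SD, n = 4 libraries). Pgf, a growth factor of the VEGF family, stood at 270, 353, 851 and 860 CPM in members and at 0 to 7.88 CPM in Xcr1+ barcodes, with a log2 ratio of 7.21 ± 0.61. H2-M2, a non-classical MHC class I gene, stood at 111, 545, 90.9 and 153 CPM in members and had no UMI in any Xcr1+ barcode. The same direction held for Ptgs1, Hpgds and Ltc4s, enzymes of prostaglandin and leukotriene synthesis, at 6.53 ± 2.84, 5.91 ± 1.59 and 5.38 ± 1.59. Pxdc1, Fam189a2, Atp8b1 and Plek2 completed the 10 largest, with mean log2 ratios from 5.25 to 6.08. Of these 10 genes 7 had no UMI in the Xcr1+ barcodes of at least 1 library, namely H2-M2 in all 4, Ptgs1 and Fam189a2 in all but 12-week-WT, Plek2 in both DB libraries, Hpgds in 21-week-DB, and Pgf and Atp8b1 in 12-week-WT. There the ratios are set against a floor of 3 UMIs and are lower bounds, and so in part are the means.

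On the other side, the members held less of several type 1 dendritic cell genes and of Ccr2. Wdfy4, needed for cross-presentation by type 1 cells, stood at 39.6, 21.4, 49.6 and 13.3 CPM in members and at 496, 454, 502 and 126 CPM in Xcr1+ barcodes. Batf3, a transcription factor of type 1 cells, stood at 15.9, 14.3, 8.26 and 0 CPM against 125, 110, 113 and 94.6 CPM. Ccr2, the receptor that brings monocytes and their offspring from blood, was 39.6, 174, 33.1 and 107 CPM against 319, 395, 107 and 276 CPM. The largest differences in this direction were Ifi205 (log2 ratio -4.38 ± 0.78), Wdfy4 (-3.66 ± 0.53), Txndc16, Ckb, Ece1, Gpr141b, Lbh, Clec12a, Batf3 and Mpeg1. Of these, Ifi205 had no UMI in the members of 12-week-WT, Lbh none in 21-week-WT, Clec12a and Batf3 none in 21-week-DB and Gpr141b none outside 12-week-WT. There the difference is at least as large as the ratio against a floor of 3 UMIs, so the means of these 5 genes and their places in the order are in part bounds. Irf8, which drives type 1 cells, was lower in members in all 4 libraries but by less than 2-fold in 21-week-DB, where the Xcr1+ barcodes held 386 CPM of it against 1903, 1584 and 1614 CPM in the other libraries. Without that library 186 genes were higher and 90 lower.

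Csf1r was also on the members' side, as were Mt1 and some genes of the interleukin-1 and NF-kB lists. They are named singly, and not every gene of these lists went this way. Il1b stood at 135 CPM in members of 12-week-WT and at 168 CPM in its Xcr1+ barcodes. Csf1r, on which Langerhans cells depend, stood at 507, 410, 521 and 466 CPM in members and at 32.2, 64.1, 28.4 and 47.3 CPM in Xcr1+ barcodes (log2 ratio 3.54 ± 0.69). Il1r2, a decoy receptor that binds interleukin-1 without signalling, stood at 1094, 1617, 992 and 766 CPM against 32.9, 28.2, 44.2 and 126 CPM. Nlrp3, the sensor of the inflammasome, was 174, 470, 331 and 560 CPM against 21.4, 32.1, 25 and 23.6 CPM. Nfkbia, which encodes the inhibitor that holds NF-kB in the cytoplasm, had the most even ratio of these genes, 1.46 ± 0.10. Cxcl2, Tnfaip3 and Mt1 were higher too, at 2.88 ± 0.99, 2.18 ± 0.48 and 2.68 ± 0.37. None of 9 ranked genes of MHC class II presentation was past 2-fold in all libraries in either direction.

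Il1b differed more between libraries than any Langerhans gene described above. The members held 17 UMIs of it in 12-week-WT, which is 135 CPM (78.5 to 216). They held 503 UMIs in 12-week-DB, or 1791 CPM (1638 to 1955), and 74 UMIs in 21-week-WT, or 612 CPM (480 to 768). In 21-week-DB they held 921 UMIs, or 6137 CPM (5747 to 6547). The order ran from 12-week-WT through 21-week-WT and 12-week-DB to 21-week-DB, and no neighbouring intervals overlapped. Its middle depended on the Cd207 limit. With Cd207 at 2 UMIs or more, 21-week-WT lay above 12-week-DB. DB was higher than WT by a log2 ratio of 3.73 (exact conditional 95% interval 3.04 to 4.52) at 12 weeks and 3.33 (2.98 to 3.69) at 21 weeks. The ratio at 12 weeks was 2.50 with no limit on C1q and 7.67 in members with the Langerhans list highest. At 21 weeks it was 2.84 with no limit on C1q and lower still with Cd207 at 2 UMIs or more. The 21-week library was higher than the 12-week library by 2.18 (1.41 to 3.04) in WT and by 1.78 (1.62 to 1.94) in DB.

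Single cells overlapped far more than these sums. Il1b was detected in 2 of 10 members of 12-week-WT, 14 of 25 of 12-week-DB, 4 of 8 of 21-week-WT and 11 of 11 of 21-week-DB. The medians were 0, 1, 1 and 41 UMIs a cell, with ranges of 0 to 16, 0 to 133, 0 to 30 and 2 to 233. Of the Il1b UMIs in 12-week-WT, 94.1% came from 1 cell, a cell with the type 2 list highest. Per 10000 UMIs of the cell, 9 of 25 members of 12-week-DB were above the highest member of 12-week-WT, and 7 of 11 of 21-week-DB above the highest of 21-week-WT. After each cell was thinned to 2000 UMIs, Il1b was detected in 10%, 40%, 37.5% and 100% of members, against 2.16%, 2.44%, 4.22% and 2.27% of T cells, which should lack it. Only in members with the Langerhans list highest, the levels were 10.0, 2050, 813 and 6737 CPM, where the first rests on 1 UMI.

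Il1b was also measured in other cells of the same libraries. Xcr1+ barcodes held Il1b at 168, 615, 425 and 2159 CPM, so the members were 0.32 lower on the log2 scale in 12-week-WT and higher by 1.54, 0.53 and 1.51 in the other libraries. Dendritic cells with Cd209a, a lectin of type 2 dendritic cells, held 433, 662, 1590 and 4204 CPM. Macrophages held 49.7, 58.1, 347 and 365 CPM and T cells 7.40, 42.7, 23.9 and 14.5 CPM. Over all kept barcodes Il1b stood at 176, 207, 690 and 586 CPM, with no higher level in 21-week-DB than in 21-week-WT. The cells set aside by the C1q limit held it at 612, 1715, 1333 and 6762 CPM. The sums of Xcr1+ barcodes also rested on few cells. In 12-week-DB 13 of 55 held Il1b, and 363 of the 480 UMIs came from 2 of them. Without the highest barcode of each library the Xcr1+ levels were 101, 402, 371 and 1473 CPM, so that 12-week-DB and 21-week-WT lay close together.

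**Figure D3:**
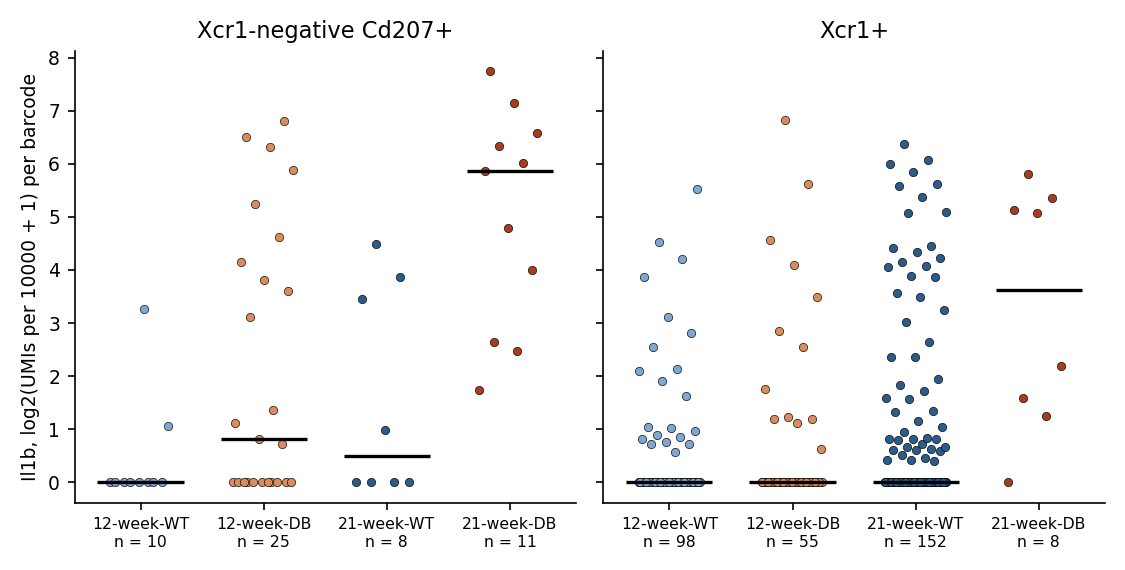
Il1b in single barcodes of each library, as log2(UMIs per 10000 + 1) on the y axis, for members and for Xcr1+ barcodes, with a black line at the median. All 11 members of 21-week-DB lie above 0, and in 12-week-WT 8 of 10 lie at 0.

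At 21 weeks the members of DB carried more RNA of NF-kB targets, chemokines and metallothioneins than those of WT. Of 711 ranked genes, 101 (14.2%) were at least 2-fold higher in DB and 30 (4.22%) at least 2-fold lower. In the NF-kB list 7 of 9 ranked genes were higher (Tnf, Cxcl2, Cxcl1, Nfkbia, Nfkbiz, Tnfaip3 and Nr4a1) and none lower, with a median log2 ratio of 1.27 against 0.04 over all ranked genes. In the interleukin-1 list Il1b and Il1rn were higher of 4 ranked. Both ranked genes of the glucocorticoid and metal list, Mt1 and Mt2, were higher. No gene of the MHC class II list was higher and 1 of 7, H2-DMb2, was lower.

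Cxcl2 encodes a chemokine that draws neutrophils. Its level was 927 CPM (WT) and 1624 (DB) at 12 weeks and 736 (WT) and 17685 (DB) at 21 weeks, and per 10000 UMIs 10 of 11 members of 21-week-DB were above the highest of 21-week-WT (log2 ratio 4.59, 4.28 to 4.91). With no limit on C1q the log2 ratio of Cxcl2 at 21 weeks was 2.43. Cxcl1, a second neutrophil chemokine, stood at 31.7, 242, 8.26 and 3492 CPM, and was detected in 8 of 11 members of 21-week-DB and 1 of 8 of 21-week-WT. Tnf stood at 270, 271, 149 and 1226 CPM (3.04, 2.34 to 3.83). It was detected in 9 of 11 members of 21-week-DB and 8 of 8 of 21-week-WT. In 21-week-DB 42.4% of its UMIs came from 1 cell, and without that cell it stood at 788 CPM. With no limit on C1q the log2 ratio of Tnf at 21 weeks was 0.71. The highest sum was thus in 21-week-DB for Cxcl2, Cxcl1 and Tnf, while 12-week-DB lay near 12-week-WT for Tnf. Nfkbia stood at 1038, 1410, 1306 and 3032 CPM and Tnfaip3, which encodes an enzyme that ends NF-kB signalling, at 729, 1004, 504 and 1146 CPM. Il1rn, the natural antagonist of the interleukin-1 receptor, had 0 UMIs in 21-week-WT and 87 in 21-week-DB, at least 23.4-fold higher against a floor of 3 UMIs in the library. Of these UMIs 22 came from 3 of the 7 members with the Langerhans list highest (302 CPM) and 65 from the 4 others (842 CPM). The 52 barcodes of 21-week-DB set aside by the C1q limit held Il1rn at 37.5 CPM. Dendritic cells with Cd209a held it at 18.7 CPM in 21-week-WT and 132 in 21-week-DB. Xcr1+ barcodes held it at 18.4 and 134 CPM, the latter from 1 of 8 barcodes.

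Metallothioneins bind zinc and copper and are induced by metals, glucocorticoids and oxidative stress. Mt1 stood at 943, 741, 545 and 5251 CPM in the members, and all 11 members of 21-week-DB were above the highest of 21-week-WT per 10000 UMIs (3.27, 2.90 to 3.65). Mt2 stood at 143, 64.1, 33.1 and 966 CPM. Mt1 was also higher in 21-week-DB in cells of other kinds. T cells held it at 43.7, 78.8, 50.02 and 308 CPM, macrophages at 362, 370, 344 and 1971 CPM and all kept barcodes at 270, 250, 221 and 1041 CPM. Cxcl2 likewise stood at 479, 514, 904 and 1706 CPM over all kept barcodes and at 572, 431, 1412 and 2899 CPM in macrophages. How much of the members' difference free RNA of the library gave was not tested.

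Further genes at 21 weeks showed that some differences came from few cells. The 5 largest rises were Cxcl1, Clec4e, Hmox1, Yae1d1 and Lyz1. Clec4e, the receptor Mincle for microbial and cell-death glycolipids, stood at 0, 14.2, 16.5 and 2499 CPM and was detected in 9 of 11 members of 21-week-DB. Hmox1, heme oxygenase, stood at 39.6, 42.7, 16.5 and 1259 CPM, with 65.6% of its UMIs in 1 cell. Lyz1, a lysozyme gene whose near-identical neighbour Lyz2 can share reads with it, had no UMI in 21-week-WT and 177 in 21-week-DB (at least 47.6-fold), from 4 cells. The largest falls were Gm42418 and Lars2, which were low across the whole library as given above for Gm42418, and then Fam102b, Dazap2 and Neurl3, with log2 ratios of -1.79, -1.77 and -1.67.

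Heat shock genes were lowest in 21-week-WT. Hspa1b, an inducible heat shock protein, stood at 6017, 4897, 1198 and 6097 CPM and Hspa1a at 4416, 3341, 901 and 5417 CPM. In 21-week-DB they lay near both 12-week libraries. In the list of early response and heat shock genes 5 of 13 were higher in DB at 21 weeks (Jun, Hspa1a, Hspa1b, Hsp90aa1 and Dnajb1) and 1 lower (Fosb), of which Dnajb1 and Fosb were not past 2-fold with no limit on C1q. Over all kept barcodes Hspa1b stood at 2799, 2392, 3625 and 3369 CPM, so that the library as a whole was not low in 21-week-WT.

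The same counts were made in other sets of barcodes. In members with the Langerhans list highest, where 58 of 381 ranked genes (15.2%) were higher, the same 7 of 9 genes of the NF-kB list were higher, and Cxcl2 stood at 1175, 1819, 1213 and 20007 CPM, Tnf at 331, 260, 128 and 1962 CPM and Mt1 at 1004, 780, 756 and 6408 CPM. With no limit on C1q, where 145 of 1660 ranked genes (8.73%) were higher, 5 of 12 ranked genes of the list were higher (Il10, Il23a, Cxcl2, Cxcl1 and Ccl4), and 5 of 5 of the glucocorticoid and metal list (Fkbp5, Tsc22d3, Sgk1, Mt1 and Mt2). Tnf, Nfkbia, Nfkbiz, Tnfaip3 and Nr4a1 were then not past 2-fold, with log2 ratios from 0.63 to 0.95. Of the 25 genes of all lists that were past 2-fold at 21 weeks in the members, 12 were so with no limit on C1q and the other 13 kept their direction.

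**Figure D4:**
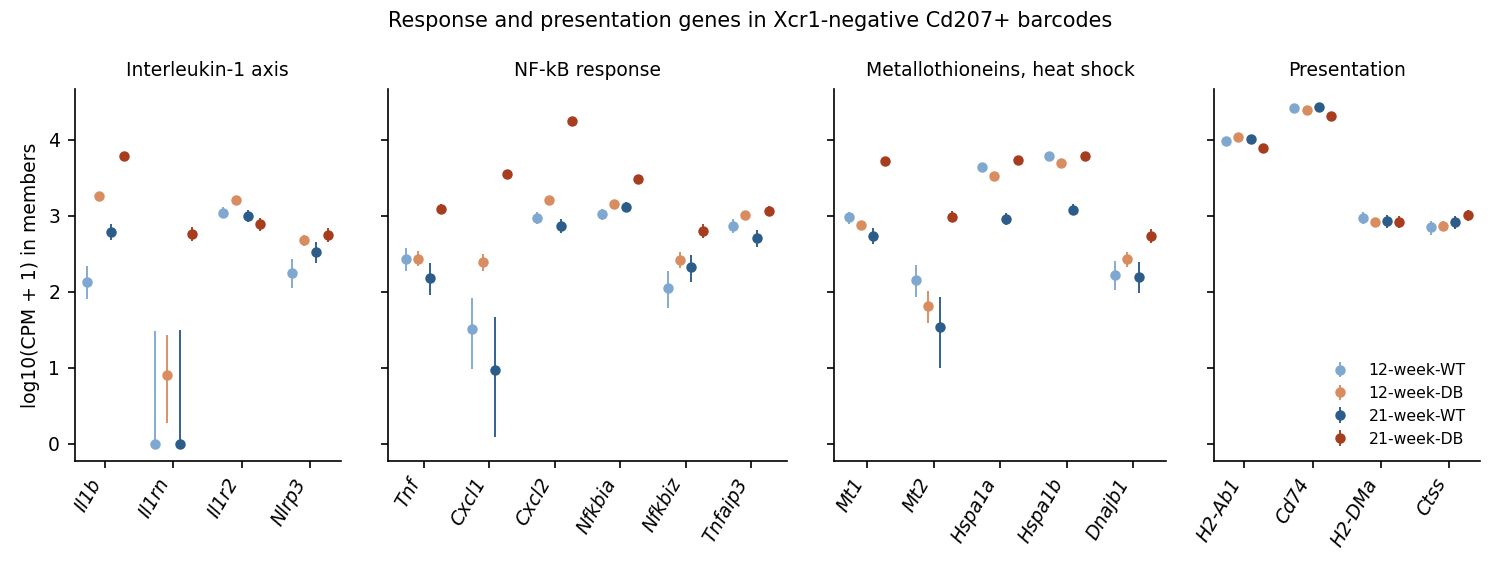
Levels in the members of the 4 libraries, as log10(CPM + 1) on the y axis with exact Poisson 95% intervals, for genes of the interleukin-1 axis, NF-kB targets, metallothioneins and heat shock, and antigen presentation. Il1b, Cxcl2, Tnf and Mt1 are highest in 21-week-DB, and the presentation genes lie close together in all libraries.

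Cxcl1, Cxcl2 and Nfkbia were all past 2-fold higher in DB at 21 weeks, and the bases just before their start sites are shown. At 12 weeks Cxcl2 and Nfkbia were not past 2-fold, with log2 ratios of 0.81 and 0.44. The RefSeq promoter sequences (GRCm38.p6) were searched on both strands within 250 bases before the start for an NF-kB motif of 3 G, any 2 bases, 3 T and 2 C. Of the 15 genes of the NF-kB list 10 matched a RefSeq entry, and 5 of these held the motif (Il6, Cxcl2, Cxcl1, Nfkbia and Tnfaip3). Over all 27025 genes 447 held it, or 1.65%. The list was drawn up as genes of the NF-kB response and cytokines, so a high share could be foreseen and tells nothing of these cells. Il6 had 2 UMIs in the members of each 21-week library. The windows of Tnf, Nr4a1, Il12b, Ccl3, Ptgs2 and Il1b held no motif. Capitals mark the motif in the sequences below, which read 5′ to 3′ on the gene's strand and end at the base before the gene, and a match is a description of letters only.
Cxcl2, chr5:90903779-90903870 (+): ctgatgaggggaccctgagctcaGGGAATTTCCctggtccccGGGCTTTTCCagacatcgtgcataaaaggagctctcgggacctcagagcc
Cxcl1, chr5:90891125-90891240 (+): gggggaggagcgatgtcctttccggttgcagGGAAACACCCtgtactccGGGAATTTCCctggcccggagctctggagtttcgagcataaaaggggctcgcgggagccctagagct
Nfkbia, chr12:55492648-55492767 (-): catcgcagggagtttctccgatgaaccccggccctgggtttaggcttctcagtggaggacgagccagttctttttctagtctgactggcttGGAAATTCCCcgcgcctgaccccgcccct

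At 12 weeks the summed members of DB held more Il1b and Nlrp3 than those of WT, and the chemokine difference came from fewer cells. Of 1122 ranked genes, 129 (11.5%) were at least 2-fold higher in DB and 24 (2.14%) at least 2-fold lower. In the interleukin-1 list Il1b and Nlrp3 were higher of 3 ranked. In the NF-kB list 4 of 10 were higher (Cxcl1, Ccl3, Ccl4 and Nfkbiz) and none lower, with a median log2 ratio of 0.76 against 0.06 over all ranked genes. Nlrp3 stood at 174 CPM in 12-week-WT and 470 in 12-week-DB, and was detected in 6 of 10 and 13 of 25 members. Its median was 1.5 UMIs a cell in WT and 1 in DB, with highest values of 7 and 24. Ccl3 and Ccl4, chemokines for monocytes and T cells, had 1 UMI each in 12-week-WT and 96 and 122 in 12-week-DB, and 99.0% and 72.1% of the latter came from 1 cell.

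Other rises at 12 weeks were spread over more cells. Mmp9, a gelatinase that Langerhans cells use to cross the basement membrane, stood at 7.93 CPM (WT) and 224 (DB) at 12 weeks and 8.26 (WT) and 6.66 (DB) at 21 weeks. It was detected in 17 of 25 members of 12-week-DB and in 1 member of each other library. Mpp7, a scaffold protein of cell junctions, stood at 7.93, 288, 124 and 86.6 CPM and was detected in 19 of 25 members of 12-week-DB. H2-M2 was higher in 12-week-DB by 2.30 on the log2 scale (1.50 to 3.20) and was detected in 24 of its 25 members against 6 of 10 in 12-week-WT. Cd207 itself, which the rule used, was 2.50-fold higher there.

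Ccr7, which guides mature dendritic cells to lymph nodes, stood at 15.9, 182, 190 and 207 CPM but was detected in only 1, 4, 3 and 3 members. It was 1 of 4 ranked maturation genes past 2-fold at 12 weeks. Jun was the 1 of 14 early response genes that was higher, and Apoe and Ccr2 the single ranked genes of the macrophage and monocyte lists, both higher in 12-week-DB. Jun and Ccr2 were not past 2-fold with no limit on C1q. Of the adhesion and migration list Ccr2 and Mmp9 were higher of 6 ranked, and at 21 weeks none of 3 was past 2-fold in DB against WT. The largest falls were Cks2, a cell cycle gene (log2 ratio -2.77, with 57.1% of its UMIs in 12-week-WT from 1 cell), and then Il6ra, Selplg, Plaur and Il13ra1, from -1.76 to -1.39.

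Some genes differed the same way at both ages. Of 657 genes ranked at both ages, 14 were at least 2-fold higher in DB at both and 1 lower. Over all ranked genes 11.5% were higher in DB at 12 weeks and 14.2% at 21 weeks. Whether the overlap differs from what these shares would give was not tested. The 14 were Il1b, Cxcl1, Nfkbiz, Jun, Icam1, Bcl2a1b, Itprid2, Hilpda, Med21, Ifitm2, Lamp1, Rasa2, Tsc22d1 and Malat1. Jun stood at 214, 844, 355 and 1086 CPM and Nfkbiz, an NF-kB cofactor, at 111, 260, 207 and 633 CPM.

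Between ages a smaller share of genes was past 2-fold in WT than in DB, and each library also enters a comparison of DB with WT above. In WT, 18 of 612 ranked genes (2.94%) were at least 2-fold higher at 21 weeks and 29 (4.74%) lower. Il1b was the largest rise, followed by Avpi1, Pde4b, Crip1 and Srgn (log2 ratios 1.79, 1.72, 1.71 and 1.68), and the largest falls were Nr4a1, Hspa1b, Hspa1a, Cebpb and Rgs1 (from -2.48 to -2.15). No gene of 6 in the NF-kB list was higher and 1, Nr4a1, was lower. Runx3 and Ahr, transcription factors that Langerhans cells need, were lower in WT at 21 weeks, with Runx3 at 491, 488, 240 and 253 CPM and Ahr at 325, 192, 90.9 and 80.0 CPM over the 4 libraries.

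In DB, 114 of 1255 ranked genes (9.08%) were at least 2-fold higher at 21 weeks and 152 (12.1%) lower. In the NF-kB list 6 of 11 were higher (Tnf, Cxcl2, Cxcl1, Ptgs2, Nfkbia and Nfkbiz) and 2 lower (Ccl3 and Ccl4), and Mt1 and Mt2 were both higher. For Ccl3 and Ccl4, 99.0% and 72.1% of the UMIs in 12-week-DB came from 1 cell. Without the highest cell 12-week-DB stood at 4.12 and 140 CPM, against 26.7 and 127 CPM in 21-week-DB. In the interleukin-1 list Il1b and Il1rn were higher and Il1r2 lower (-1.08) of 4 ranked. In the early response and heat shock list 1 of 15 was higher (Dnajb1) and 3 lower (Fosb, Junb and Zfp36, at -2.05, -1.13 and -1.52). Without the C1q limit Nfkbiz, Ccl4, Il1r2 (-0.11), Dnajb1, Fosb and Junb were not past 2-fold, and Il1r2 stood at -0.27 in members with the Langerhans list highest. The largest rises were Ccl17, Clec4e, Mmp12, Lyz1 and Il1rn, of which Ccl17 and Mmp12 drew 71.4% and 85.1% of their UMIs from 1 cell. With no limit on C1q Mmp12 was lower at 21 weeks. The largest falls were Mmp9, Ccl3, Scn3a, Cacna1e and Ppm1g, of which Ccl3 turned to 3.32 in members with the Langerhans list highest. Scn3a and Cacna1e, channel genes, were each at 214 CPM in 12-week-DB, from 20 and 19 members, and at 19.99 CPM in 21-week-DB.

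Several Langerhans genes were lower in 21-week-DB than in 12-week-DB. Of 8 ranked genes of the list 5 were lower (Tbc1d4, Ltc4s, Plek2, Cdh1 and H2-M2) and 1, Il1b, higher. Another dendritic cell list was highest in 4 of the 11 members of 21-week-DB and in 1 of the 25 of 12-week-DB. In the members with the Langerhans list highest, where 137 of 890 ranked genes (15.4%) were lower, Cdh1 was the 1 gene of the list past 2-fold lower, and Tbc1d4 stood at -0.94, H2-M2 at -0.93, Plek2 at -0.37 and Ltc4s at -0.28. Those members were chosen by the sum of these same genes, so these values are a description. With no limit on C1q, where 108 of 1698 ranked genes (6.36%) were lower, none of the 5 was past 2-fold, and Ltc4s and Plek2 then had log2 ratios of 0.74 and 0.06. Cd83, a surface marker of mature dendritic cells, stood at 1054, 1987, 686 and 420 CPM and was lower at 21 weeks in DB, as was Tmem123, while Ccl17 was higher. When the C1q limit was dropped the log2 ratios of Cd83 and Tmem123 went from -2.24 and -1.40 to -0.85 and -0.40, not past 2-fold, and that of Ccl17 from 7.65 to 1.21.

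Genes of MHC class II presentation differed little between libraries. Cd74, the invariant chain that escorts MHC class II, stood at 25930 CPM (WT) and 24602 (DB) at 12 weeks and 26736 (WT) and 20423 (DB) at 21 weeks. H2-Ab1 stood at 9568, 10645, 10223 and 7810 CPM and H2-Eb1 at 8593, 9662, 7843 and 6550 CPM. H2-DMb2, a chain of the peptide exchange factor, was the exception named above, at 277, 157, 339 and 147 CPM, but its log2 ratio at 21 weeks went from -1.21 to -0.30 with no limit on C1q, and in members with the Langerhans list highest it was too low to rank. No ranked gene of the MHC class II list was past 2-fold in the other comparisons between libraries. Of the development genes, Csf1r stayed between 410 and 521 CPM and Id2, a factor that Langerhans cells need, was 531, 613, 744 and 906 CPM. Spi1 was higher and Smad7 lower in DB at 21 weeks, and none of 6 was past 2-fold at 12 weeks. Between ages Ahr was lower at 21 weeks in DB as in WT, and Runx3 in WT. None of these calls of development genes was past 2-fold with no limit on C1q.

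Of the remaining lists, antigen uptake gave Fcgr2b and Fcer1g, receptors for antibody and their signalling chain, higher in DB at 21 weeks of 3 ranked, with Fcer1g at 396, 602, 488 and 1053 CPM. Neither was past 2-fold with no limit on C1q, and in members with the Langerhans list highest the log2 ratio of Fcer1g turned to -0.14 and Fcgr2b was too low to rank. Cd86, a costimulatory molecule, and Ccl17, a chemokine for T cells, were higher in DB at 21 weeks of 4 ranked maturation genes. Cd86 stood at 373, 659, 207 and 486 CPM, with 35.6% of its UMIs in 21-week-DB from 1 cell. Its log2 ratio at 21 weeks went from 1.24 to 0.49 with no limit on C1q. For Ccl17, 1 cell gave all 38 UMIs of 21-week-WT and 1 cell gave 71.4% of those of 21-week-DB. The Ccl17 log2 ratio at 21 weeks went from 2.77 to 1.67 with no limit on C1q. With the Langerhans list highest Ccl17 was too low to rank. In the type 2 list Mgl2 was past 2-fold higher in DB at 12 weeks, from 3 of 25 members with 56.8% of the UMIs in 1 cell. Cd209d stood at 119, 57.0, 174 and 293 CPM, and in 21-week-DB 45.5% of its UMIs came from 1 of 4 cells.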

How the data were processed

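CD45+ hindpaw cells were measured with the 10x Genomics 3' v3 protocol. The authors deposited filtered gene by barcode tables of counts (UMIs, 32285 features, 4 libraries) made with Cell Ranger on mm10, before their removal of ambient RNA and doublets. The submitters' processing notes name version 5.0.0, and the file headers 5.0.0 and 6.0.0. Barcodes under 200 genes or over 10% mitochondrial UMIs were dropped and the rule was applied to raw counts. The members and the 23 gene lists were chosen with earlier results of these data known.

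UMIs were summed per library and scaled to counts per 1000000 UMIs (CPM). Intervals (95%, exact Poisson, Clopper-Pearson and conditional binomial) cover counting error only, since 1 library per condition leaves no replicate. Genes were ranked where the higher library reached 100 CPM and both together 50 UMIs, and called past a 2-fold change. Genes at 0 were set against a floor of 3 UMIs. Against Xcr1+ barcodes (at least 1 UMI) a call needed 2-fold in all 4 libraries. Text names genes of the lists, the 5 largest rises and falls per pair of libraries, the 10 largest against Xcr1+ barcodes and the genes past 2-fold at both ages. The last, the genes in the C1q-high barcodes and those of opposite direction were picked after their values were seen. Genes of the rule, mitochondrial and ribosomal protein genes were left out of the ranking. Cd209a+ dendritic cells held at least 3 Cd209a UMIs. Clec7a and Mx1 were not analysed here.

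Scripts used Python 3.11.15, numpy 2.4.6, scipy 1.17.1, pandas 2.3.3, scanpy 1.11.5 (Scrublet, highest 0.8% of scores per 1000 barcodes) and R 4.3.3 with edgeR 4.0.16 for TMM factors alone, and the ranking was tested on simulated data. Alternatives were other limits, doublet removal, TMM scaling, mean per-cell CPM, thinning to 2000 UMIs and other minimums. Dropping the C1q limit and keeping members with the Langerhans list highest were chosen after seeing the data.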

Additional observations from a re-analysis of the deposited data

Results flagged for a closer look

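The barcodes set aside by the C1q limit lie outside the comparisons of members. They numbered 52 in 21-week-DB against 5 in 21-week-WT, the control library of that age. Their Langerhans genes stood at 6128 CPM for Mfge8, 776 for Epcam and 2237 for Tbc1d4 in 21-week-DB, and their C1qa level was 764 CPM where macrophages of the library held 2978. In 12-week-DB the 8 barcodes of this kind held Pf4 at 850 CPM and Lyve1 at 492 CPM, but 96.5% and 98.5% of these UMIs came from 1 barcode with 159 C1q UMIs, and the levels without it were 42.9 and 10.7 CPM. The other 7 held 5 to 19 C1q UMIs. The source of the C1q UMIs was not tested.

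There were 4 genes past 2-fold in opposite directions in DB against WT at the 2 ages, and with 1 library per condition the difference between ages was not tested. Etv3, a transcriptional repressor, moved from a log2 ratio of -1.18 at 12 weeks to 1.12 at 21 weeks, with 491 (WT) and 217 (DB) CPM at 12 weeks and 132 (WT) and 287 (DB) CPM at 21 weeks. Marcks, a substrate of protein kinase C, had -1.30 and 1.19, with 824, 335, 397 and 906 CPM in the same order. Antxr2, an anthrax toxin receptor, had 1.96 and -1.03, with 71.3, 278, 273 and 133 CPM, and Zfp263, a zinc finger gene, had 2.02 and -1.31, with 63.4, 256, 298 and 120 CPM.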

How the results depend on the processing

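The log2 ratio of shares between ages in DB (-1.59) turned to 0.52 with no limit on C1q, and it kept its direction under the other alternatives. At 21 weeks the log2 ratio of shares of DB to WT (0.20), whose interval includes 0, lay from -0.26 to -0.10 under 4 alternatives. No Il1b ratio between libraries turned. In 12-week-WT the members held less Il1b than Xcr1+ barcodes, and with Cd207 at 2 UMIs or more they held more. The Il1b log2 ratio of DB to WT at 12 weeks (3.73) rested on 1 cell of 12-week-WT, since it became 7.23 without the cell of each library that held the most, 7.69 with Epcam required as well, 7.67 in members with the Langerhans list highest, 2.59 with Cd207 at 2 UMIs or more and 2.50 with no limit on C1q. At 21 weeks it became 1.70 with Cd207 at 2 UMIs or more and 2.84 with no limit on C1q. Between ages it became 5.47, 5.79 and 6.34 in WT under the first 3 of these settings, and in DB 2.36 without the highest Scrublet scores and 1.98 with Cd207 at 2 UMIs or more. The log2 ratio of shares of DB to WT at 21 weeks became 2.02 with no limit on C1q.

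Counts of genes past 2-fold moved most with the minimum. At 50 CPM and 25 UMIs they were 267 higher and 132 lower at 12 weeks, 225 and 97 at 21 weeks, 92 and 107 between ages in WT and 249 and 352 in DB, with 94 lower against Xcr1+ barcodes. With no minimum beyond 1 UMI they were 984 and 1975, 1353 and 1197, 1125 and 1233, and 1345 and 1365, with 190 and 108 against Xcr1+ barcodes. Thinned to 2000 UMIs they were 23 and 2, 15 and 7, 2 and 4, and 16 and 23, with 46 and 17 against Xcr1+ barcodes, since fewer genes reached the minimum. Without the highest Scrublet scores, 63 were higher at 21 weeks, and with the Langerhans list highest 58, with 57 between ages in DB (69 with Epcam required). Between ages in WT 49 and 52 passed with Cd207 at 2 UMIs or more, 28 and 19 under TMM scaling and 47 and 44 with no limit on C1q. At 12 weeks 39 were lower by mean per-cell CPM, 15 under TMM scaling and 37 with no limit on C1q, and at 21 weeks 58 were lower with no limit on C1q. Leaving out 1 library at a time gave 133 to 186 higher and 64 to 90 lower against Xcr1+ barcodes.

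Of 520 values for the 40 largest rises and falls between libraries, 508 kept their direction, as did 400 of 400 against Xcr1+ barcodes. Thinning turned Il6ra at 12 weeks (0.68), Fam102b at 21 weeks (0.54), Avpi1 and Pde4b between ages in WT (-0.093 each) and Ccl3 between ages in DB (0.18). With no limit on C1q Mmp12 turned to -0.49 between ages in DB. In members with the Langerhans list highest Ccl3 turned to -1.28 at 12 weeks and 3.32 between ages in DB, because the cell that held it was left out. Genes of the lists were past 2-fold 76 times over the 4 pairs of libraries, with genes counted once in each pair. Of these 76 calls 45 held in members with the Langerhans list highest, 13 were not past 2-fold and 18 were too low to rank, and Fcer1g at 21 weeks (-0.14) and, between ages in DB, Cd209d (0) and Mrc1 (-0.68) no longer had their direction. With no limit on C1q 41 held, 32 were not past 2-fold and 1 was too low, and Apoe (2.45) and Mrc1 (-1.69) turned between ages in DB, from -1.68 and 1.47. Mrc1 rested on 4 of 11 members of 21-week-DB, with 48.6% of its UMIs in 1 cell. Ltc4s and Plek2 turned too, and Irf8, lower in DB at both ages (-1.33 and -1.31), drew 67.7% of its UMIs in 21-week-WT from 1 cell and was -0.84 and -0.69 with the Langerhans list highest. Limiting Xcr1+ barcodes to those with 3 Cd207 UMIs gave no value over all libraries, since 21-week-DB held none, and over the others gave 162 higher and 80 lower. No paired analysis was possible because each condition was 1 library. With 8 to 25 members a library, counting error was wide for genes near the minimum of 50 UMIs.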
